A study of Homo sapiens with 18 samples.

Results

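The response of PANC-1 cells to THZ1 was compared with the response of BxPC-3 and MiaPaCa-2 cells, gene by gene. For each gene the log2 difference between THZ1 and DMSO in PANC-1 was set against the mean of the same difference in the other lines, and this interaction contrast is called the contrast here. The members were the 17026 endogenous genes of a table of 17064 rows, whose other 38 rows were ERCC spike-in transcripts. Of these genes 15354 passed a filter on low values and were tested in 1 fit over 18 libraries. The 3 lines are established human pancreatic ductal adenocarcinoma lines. Cells of each line received THZ1 at 100 nM, or DMSO as the solvent control, for 6 h, with 3 libraries in each of the 6 groups, and all were grown in the same medium. The labels do not say whether the 3 libraries of a group came from separate cultures, so that p-values measure the spread between these libraries, which may be technical.

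THZ1 binds covalently to the kinase CDK7 of TFIIH and also to CDK12 and CDK13, and blocks them. CDK7 phosphorylates the C-terminal domain of RNA polymerase II as transcription starts, and CDK12 and CDK13 act during elongation. Transcripts with a short life, such as those of immediate early transcription factors, respond within hours when transcription changes, while stable transcripts, such as those of ribosomal proteins, keep a larger share of the remaining pool.

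The libraries were checked against the labels of the lines. SMAD4, which is deleted in BxPC-3, lay between 0.061 and 0.242 in that line and between 12.6 and 25.4 in PANC-1, in units of the deposited value times 1 constant that gives the mean library a sum of 1000000. PANC-1 held the mesenchymal filament gene VIM at 1200.0 to 1609 and the keratin KRT8 at 1412 to 2762. Neither set it apart from MiaPaCa-2, which had 1354 to 2478 and 1398 to 3311. The epithelial marker CDH1 was low in PANC-1, at no more than 4.893, against 285.2 to 625.1 in BxPC-3. The keratin KRT7 was likewise at no more than 7.261 in PANC-1, against 1888 to 3786 in BxPC-3. The keratin KRT19 lay at 706.4 to 974.7 in PANC-1 and at 55.4 to 86.38 in MiaPaCa-2. Of 16 markers of acinar, endocrine, fibroblast, leukocyte and endothelial cells, 4 were among the rows of the table, and EPCAM and CDH2 were not. The fibroblast collagen gene COL1A1 lay at 22.03 to 53.8 in PANC-1, 8.96 to 16.95 in BxPC-3 and 0.766 to 2.21 in MiaPaCa-2, and COL3A1 at 0.396 to 3.63, 0.379 to 0.969 and 119 to 246. In PANC-1 PDGFRB, found in fibroblasts and pericytes, lay at 0.115 to 3.63 and the endothelial marker VWF at 0.204 to 6.79. The highest PANC-1 values of CDH1, KRT7, COL1A1, COL3A1, PDGFRB and VWF were those of PANC-1 DMSO replicate 1, described next. The part of the fibroblast and endothelial markers in the results was not tested. The first PANC-1 DMSO library (replicate 1) differed from all others. It held 6352482 recovered reads against 12556005 to 20910423 in the others, and its residual SD over genes was 0.52 against 0.10 to 0.31. Its 10 most abundant genes took 18.9% of its reads, against 8.06% and 8.11% in the other PANC-1 DMSO libraries. Its deviation from those libraries correlated with transcript GC content across genes (r = 0.59, n = 13096 genes, which share the library and are not independent); the other PANC-1 libraries, each against the rest of its group, had r from -0.51 to 0.52. Results are therefore given with all libraries and again without it, which leaves 2 PANC-1 DMSO libraries.

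FOS, FOSB and EGR1, immediate early genes that encode transcription factors, fell in PANC-1 and rose in MiaPaCa-2. The 250 bases before the RefSeq start of each gene (GRCh38.p14, plus strand, 5′ to 3′) are shown because these genes had the largest PANC-1 falls among the genes that moved against another line; capitals mark the cAMP response element core, TGACGT on either strand. The windows are chr14:75278578-75278827 for FOS, chr19:45467746-45467995 for FOSB and chr5:138465229-138465478 for EGR1.
FOS: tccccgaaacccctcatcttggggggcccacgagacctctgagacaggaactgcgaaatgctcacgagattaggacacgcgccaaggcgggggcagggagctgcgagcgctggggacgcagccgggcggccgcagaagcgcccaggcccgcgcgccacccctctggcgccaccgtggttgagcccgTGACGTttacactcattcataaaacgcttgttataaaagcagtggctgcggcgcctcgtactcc
FOSB: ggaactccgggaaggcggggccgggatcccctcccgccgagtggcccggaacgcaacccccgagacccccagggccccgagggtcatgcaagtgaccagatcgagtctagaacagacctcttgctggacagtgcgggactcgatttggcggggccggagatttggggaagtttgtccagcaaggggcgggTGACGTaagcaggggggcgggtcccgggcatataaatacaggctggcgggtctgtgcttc
EGR1: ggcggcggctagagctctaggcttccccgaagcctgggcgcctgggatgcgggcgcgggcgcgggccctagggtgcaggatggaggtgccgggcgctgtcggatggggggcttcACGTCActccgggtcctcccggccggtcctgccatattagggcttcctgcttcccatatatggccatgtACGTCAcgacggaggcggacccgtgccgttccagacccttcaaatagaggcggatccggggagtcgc
The core was found at 1 place in each of FOS and FOSB and at 2 places in EGR1. The same window held it in 7.1% of all 35116 RefSeq promoters and in 10.4% of the 9616 tested genes matched to one by symbol. Within the 250 bases the CArG box, the binding element of serum response factor, was found at 2 places in EGR1 and at 0 in FOS and FOSB. Sites further upstream were not searched, so a gene without a match may hold one there. The window held the box in 1.16% of all promoters. The windows of DUSP2 and ATF4, described below, were not looked up. The windows of JUNB and IER2 held neither. The motifs were chosen after the genes were seen, and a match is a description of letters.

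FOS fell in every PANC-1 THZ1 library. Its level was 31.1, 29.3 and 29.1 in the PANC-1 DMSO libraries and 9.73, 9.24 and 12.8 with THZ1. In MiaPaCa-2 it was 68.5, 90.2 and 78.6 with DMSO and 177, 185 and 166 with THZ1, and in BxPC-3 140.5, 146 and 153 against 153, 144 and 155. The groups did not overlap in PANC-1 or MiaPaCa-2, where they moved in opposite directions, and they overlapped in BxPC-3. The log2 response was -1.42 in PANC-1 (SE 0.11, adjusted p = 9.2e-06), 1.15 in MiaPaCa-2 (adjusted p = 2.7e-07) and 0.04 in BxPC-3 (adjusted p = 0.758). The contrast was -2.02 (SE 0.13, adjusted p = 6.8e-08), and without PANC-1 DMSO replicate 1 it was -1.99 (SE 0.12, adjusted p = 3.2e-11).

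FOSB, a partner of JUN proteins like FOS, stood at 84.9, 40.01 and 35.1 in PANC-1 with DMSO and at 13.2, 12.1 and 11.4 with THZ1. In MiaPaCa-2 it went from 46.4, 60.4 and 50.98 to 101, 102 and 85.2, and in BxPC-3 from 149, 134 and 136 to 98.4, 101 and 109. The THZ1 libraries were lower in PANC-1 and BxPC-3 and higher in MiaPaCa-2, with no overlap in any line. Its contrast was -2.14 (SE 0.27, adjusted p = 1.5e-05) and -1.75 (SE 0.12, adjusted p = 1.0e-10) without the deviating library, which had the highest PANC-1 level. EGR1, a zinc finger factor induced by growth signals, was at 118, 59.2 and 59.7 in PANC-1 with DMSO and at 33.4, 28.2 and 31.1 with THZ1. MiaPaCa-2 had 164, 197 and 173 against 548, 549 and 494, and BxPC-3 139.9, 139 and 137 against 112, 125 and 139. EGR1 therefore moved in opposite directions in PANC-1 and MiaPaCa-2, and its groups overlapped in BxPC-3. Its contrast was -1.96 (SE 0.23, adjusted p = 7.2e-06) and -1.64 (SE 0.10, adjusted p = 2.7e-11) without that library.

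The rise in MiaPaCa-2 depended on the scale. With all libraries set to equal ERCC sums, the MiaPaCa-2 response was -0.13 for FOS (adjusted p = 0.498), -0.42 for FOSB (adjusted p = 0.0752) and 0.28 for EGR1 (adjusted p = 0.158). The PANC-1 response on that scale was -1.71, -2.21 and -1.53, and the contrast -1.07, -1.19 and -1.01. These values place the BxPC-3 response on that scale below that of MiaPaCa-2 and make it negative for each gene, though smaller than in PANC-1. A fall of these genes was thus not particular to PANC-1 on the ERCC scale. The direction of the contrast was thus the same on both scales, while opposite movement was measured on the deposited scale.

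With all libraries 5 genes had a called PANC-1 response and a called response of the other sign in at least 1 other line: FOS, FOSB, EGR1, DUSP2 and ATF4. These genes were named after their values were seen. DUSP2, a phosphatase that acts on MAP kinases, was at 15.8, 14.1 and 9.88 in PANC-1 with DMSO and at 6.51, 6.00 and 6.57 with THZ1, and at 14.3, 13.1 and 14.5 against 36.00, 31.5 and 26.2 in MiaPaCa-2. It fell in BxPC-3 as well (log2 -0.68), and its contrast of -1.14 was -0.37 on the ERCC scale, where it did not pass. ATF4, the central factor of the integrated stress response, was at 146, 120.5 and 112 against 95.7, 87.4 and 93.8 in PANC-1 and rose in BxPC-3 (log2 0.59). Its contrast of -0.71 turned to 0.25 on the ERCC scale. Without the deviating library the count was 18 genes, which included the 5. It was 52 without PANC-1 DMSO replicate 2, 358 without replicate 3, 159 with sample weights, 23 with DESeq2 and 14 on the ERCC scale. FOS, FOSB and EGR1 were not among the 14, as neither other line had a called rise in them on that scale. Fits without replicate 2 or 3, here and below, kept the deviating library as 1 of 2 PANC-1 DMSO libraries. The fit with sample weights, here and below, rested PANC-1 THZ1 mostly on its replicate 3.

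**Figure D1:**
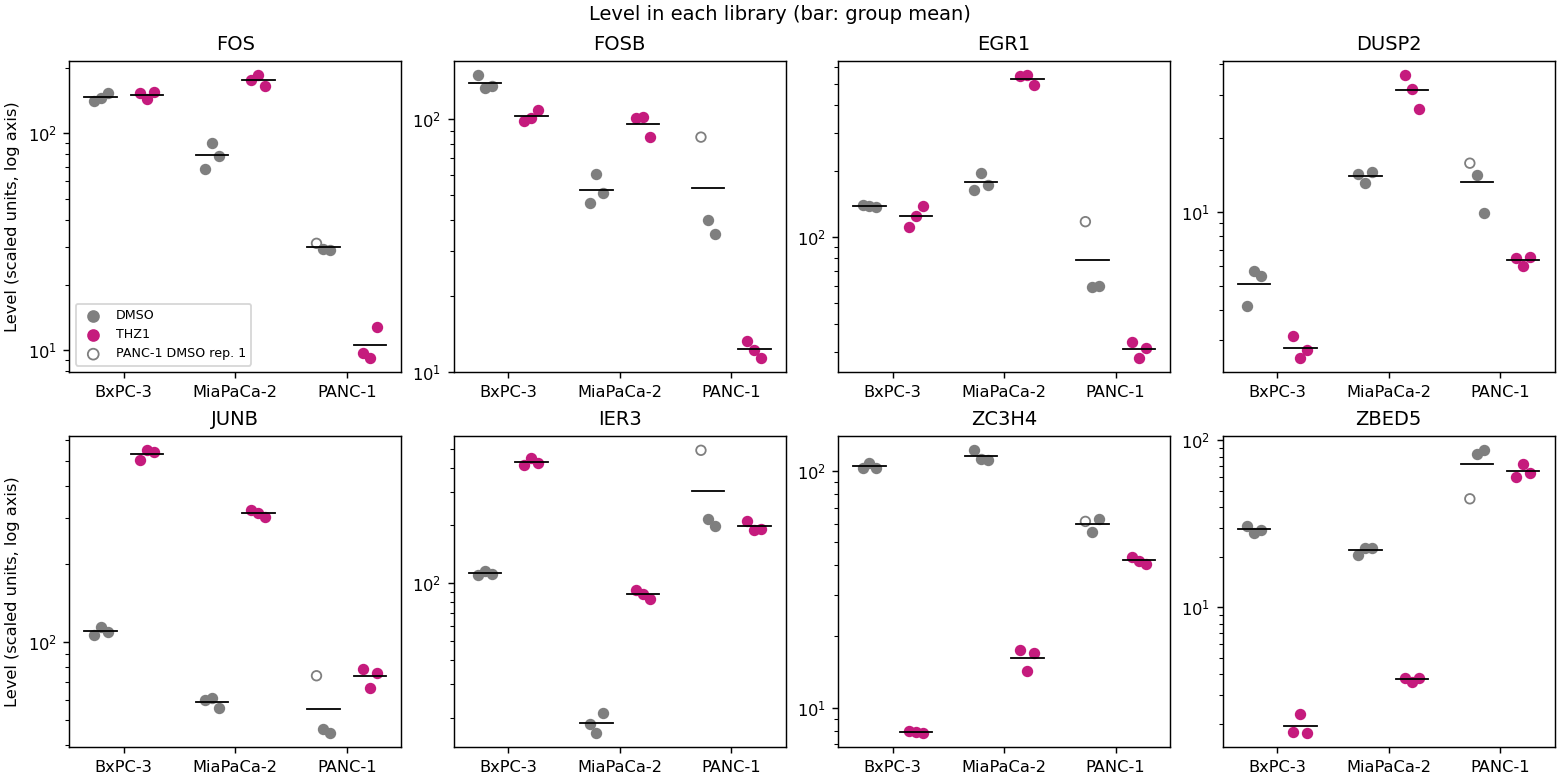
Level of 8 genes in each of the 18 libraries, on a log axis in units of the deposited value times 1 constant; points are libraries, bars are group means and the open circle is PANC-1 DMSO replicate 1. FOS, FOSB and EGR1 are lower with THZ1 in PANC-1 and higher in MiaPaCa-2, and ZC3H4 and ZBED5 are far lower with THZ1 in BxPC-3 and MiaPaCa-2.

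Many genes set apart in PANC-1 had a response of the same sign as in both other lines but smaller. The contrast passed the test (limma, adjusted p under 0.05) for 7096 genes, 46.2% of those tested: 1961 were higher in PANC-1 than in the other lines (12.8%) and 5135 lower (33.4%). Without PANC-1 DMSO replicate 1 it passed for 8728 of 15164 genes (57.6%), 2676 higher (17.6%) and 6052 lower (39.9%). The 2 fits shared 6681 of these genes, all with the same sign. The same contrast turned to BxPC-3 against the other lines passed for 4371 genes (28.5%) and turned to MiaPaCa-2 for 3061 (19.9%). Without replicate 1 these passed for 7921 (52.2%) and 6603 (43.5%). These turned contrasts hold PANC-1 in their reference. Compared directly, the responses of BxPC-3 and MiaPaCa-2 differed for 2118 genes, and for 5421 without replicate 1. PANC-1 differed in 1 direction from each other line for 4164 genes (27.1%), and for 5723 without the deviating library (37.7%).

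The split between higher and lower depended on the scale. With all libraries it was 6360 higher and 254 lower at equal ERCC sums, 5454 and 990 where the endogenous sums were made equal, 3216 and 2642 by DESeq2 size factors, 3467 and 2430 by TMM and 1866 and 5545 at an equal median gene. The median contrast over all genes was -0.28 as deposited and 0.49 on the ERCC scale. The endogenous sum of a library was not constant as deposited. THZ1 libraries of BxPC-3 summed to between 1319130 and 1350250, above the DMSO range of 800552 to 808905. For MiaPaCa-2 the ranges were 1306990 to 1328180 and 835239 to 844038. For PANC-1 they were 835505 to 856249 and 773011 to 1000170, the highest being replicate 1. A rise as deposited is therefore not the same as a rise in a gene's share of the library. The summed spike-ins rose relative to the deposited scale by 1.19 log2 (SE 0.09) in BxPC-3, 1.30 (SE 0.16) in MiaPaCa-2 and 0.28 (SE 0.19) in PANC-1. An exact permutation test, two-sided, gave p = 0.1 in BxPC-3 and in MiaPaCa-2, the smallest that 3 against 3 can give, and p = 0.2 in PANC-1. The contrast of these sums was -0.96 (SE 0.21). The controls were added to extracted RNA, so the ERCC scale is not a measure per cell or per culture. In these bulk samples fewer cells and less RNA per cell cannot be told apart.

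Genes were sorted by what they did in each line. No gene was opposite in the strict sense, with a called PANC-1 response against a called response of 1 direction in both other lines. In PANC-1 a response at an unadjusted p under 0.05 was measured for 40 of the 1990 genes that had the opposite sign without a called PANC-1 response. DESeq2 found 3 strictly opposite genes, and edgeR's quasi-likelihood test 0. Leaving out PANC-1 DMSO replicate 3 gave 104, replicate 2 gave 11 and replicate 1 gave 1, LIX1L. LIX1L was at 21.8, 26.01 and 22.01 in PANC-1 with DMSO and at 18.7, 20.2 and 19.7 with THZ1, and its PANC-1 response without replicate 1 was -0.28 (adjusted p = 0.045) against 0.20 in BxPC-3 and 0.79 in MiaPaCa-2. Its contrast was -0.78 in that fit and 0.02 on the ERCC scale.

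With all libraries the weaker class was the largest, but at a contrast of at least 1 log2 it held 683 genes against 974 in the opposite sign class. Without PANC-1 DMSO replicate 3 it held 2379 against 2691. That fit gave the deviating replicate 1 more weight, and its SD of the PANC-1 response over genes was 0.43, against 0.19 without replicate 1. With all libraries the weaker class held 3241 genes (21.1%), of which 1146 fell and 2095 rose in both other lines. That split turned with the scale: 2865 fell and 291 rose at equal endogenous sums, 5394 and 25 at equal ERCC sums, and 6576 and 47 at equal ERCC sums without replicate 1. A further 1990 genes (13%) had a PANC-1 estimate of the opposite sign that was not called, with a median size of 0.12 log2. Without PANC-1 DMSO replicate 1 the weaker class held 6331 genes (41.8%) and the opposite sign class 1085 (7.16%). Of the 1990 genes in the opposite sign class with all libraries, 1571 were in the weaker class without that library, 387 stayed and 32 were not called. The stronger class, unlike the weaker class, asked for a called PANC-1 response, which 77 genes had with all libraries. The sizes of the stronger and weaker classes therefore cannot be compared directly. The stronger class held 0 genes with all libraries and 2 without PANC-1 DMSO replicate 1. The class with a called response in PANC-1 alone held 3 and 11. The last class held 73 genes without PANC-1 DMSO replicate 2, 407 without replicate 3, 59 with DESeq2, 59 with sample weights and 21 on the ERCC scale.

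**Figure D2:**
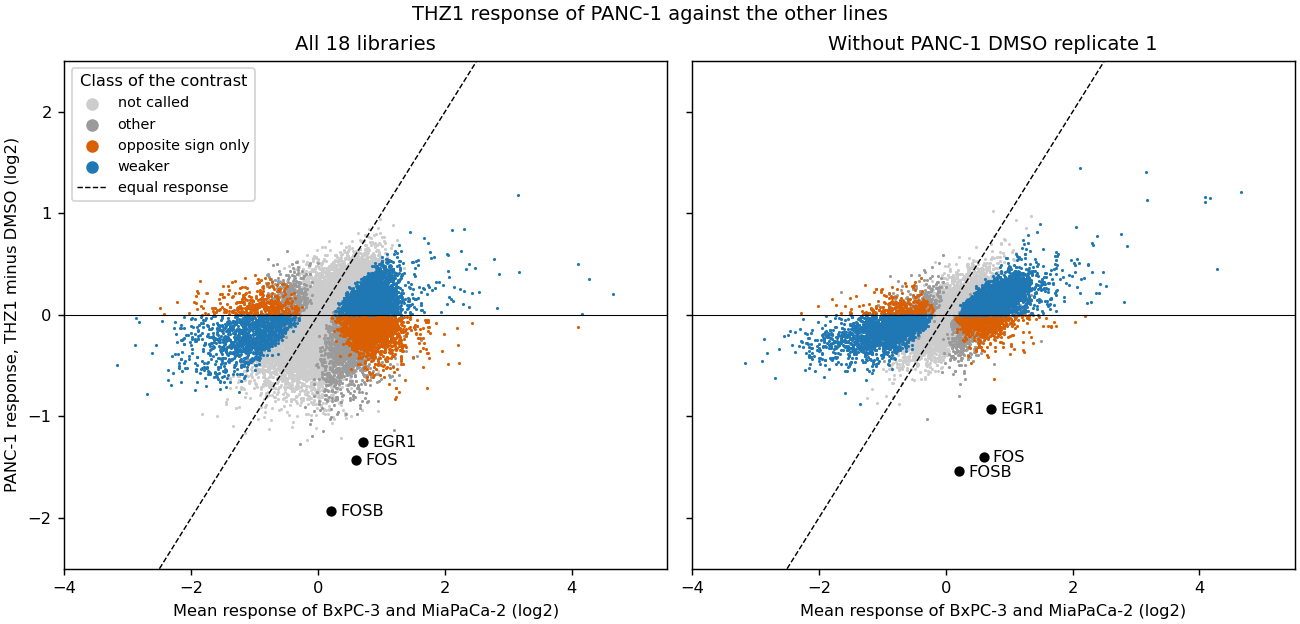
Log2 response of PANC-1 (vertical) against the mean log2 response of BxPC-3 and MiaPaCa-2 (horizontal) for the genes tested, coloured by class, with all 18 libraries (left) and without PANC-1 DMSO replicate 1 (right); the dashed line marks equal responses. The cloud is flatter than the dashed line in each panel, the 1990 opposite sign genes on the left are 1085 on the right, and FOS, FOSB and EGR1 lie below the cloud. The stronger, opposite and PANC-1 alone classes are not drawn.

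**Figure D3:**
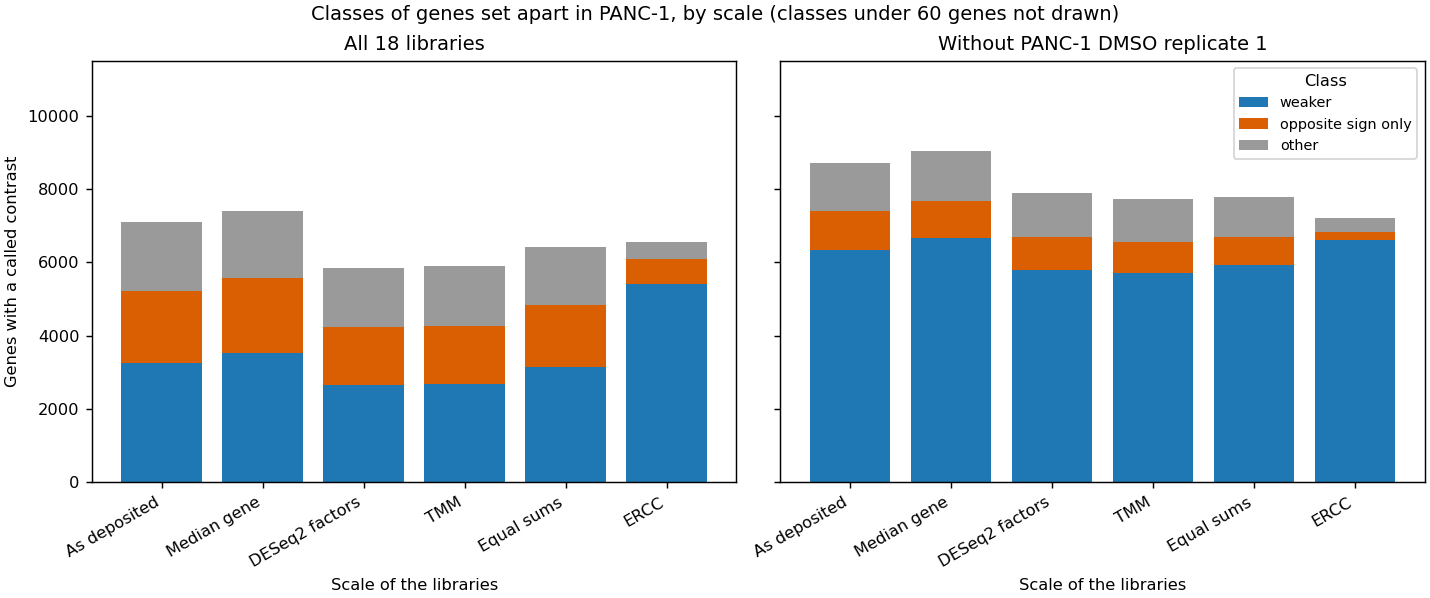
Number of genes with a called contrast in the weaker, opposite sign only and other classes (stacked bars from 0) on 6 scales of the libraries, with all libraries (left) and without PANC-1 DMSO replicate 1 (right). The weaker class is the largest class on every scale drawn, from 2646 to 5419 genes on the left and from 5711 to 6655 on the right.

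The size of the PANC-1 response followed that of the other lines at a lower level. The PANC-1 response itself passed for 77 genes (0.501%) with all libraries and for 1059 (6.98%) without the deviating library (5.63% higher and 1.35% lower), against 9055 in BxPC-3 (59%) and 8640 in MiaPaCa-2 (56.3%) with all libraries and 73.8% and 71.9% of genes without it. This PANC-1 count was 857 without PANC-1 DMSO replicate 2, 3340 without replicate 3 and 5 to 20 without any 1 of the other libraries. On the ERCC scale 5 genes rose and 2850 fell in PANC-1, and 24 and 2438 without replicate 1. The SD of the response over genes was 0.30 in PANC-1 (0.19 without replicate 1), 0.73 in BxPC-3 and 0.68 in MiaPaCa-2. Across the 15354 genes, which are not independent, the slope of the PANC-1 response on the mean of the others was 0.149 (r = 0.33), and 0.184 (r = 0.65) without replicate 1. On 5 other scales without the deviating library it was 0.184 to 0.206. For BxPC-3 on MiaPaCa-2 the slope was 0.822 (r = 0.77). Set singly against the same DMSO and other-line means, the PANC-1 THZ1 libraries gave slopes of 0.176, 0.118 and 0.153, which are therefore not independent of each other.

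Among 525 genes that fell at least 1 log2 in both other lines, PANC-1 kept a median 14.9% of the mean log2 response without the deviating library (quartiles 9.78% and 20.4%). Among 712 genes that rose as much it kept 22.9% (quartiles 18.5% and 26.7%). In that fit PANC-1 was called in the same direction for 66 and 341 of them and in the opposite direction for 0. With all libraries the medians were 15.1% of 525 genes and 6.10% of 709, with 8 and 21 called in the same direction and 0 in the opposite one. On the ERCC scale without the deviating library 4076 genes fell and 19 rose as much in both other lines, and PANC-1 kept 28.7% and 25.2%, with 1674 and 7 called in the same direction. On the deposited scale the median PANC-1 response was -0.30 without the deviating library and -0.29 with it for the 54 genes whose mean elsewhere was at most -2. For the 36 genes above 2 it was 0.49 without and 0.24 with that library. All these sets were chosen by large responses in the other lines, which in itself favours a smaller response in PANC-1. The share kept was not computed for BxPC-3 or MiaPaCa-2, so it describes these genes only.

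Regulators of RNA and transcription were among the weaker genes that fell elsewhere. ZC3H4, a zinc finger protein that restricts non-coding transcription, was at 61.2, 55.03 and 62.4 in PANC-1 with DMSO and at 43.5, 41.8 and 40.6 with THZ1. In BxPC-3 it went from 103, 108 and 103 to 7.94, 7.89 and 7.83, and in MiaPaCa-2 from 122, 112 and 111 to 17.6, 14.3 and 16.9. The groups did not overlap in any line, and the fall in PANC-1 (log2 -0.49) passed the test at an adjusted p of 0.0238. Its contrast was 2.67 (SE 0.10, adjusted p = 2.2e-10). PPP1R10, a subunit of a phosphatase complex that acts at transcription termination, chosen after its values were seen, fell in all 3 lines, with log2 responses of -2.81, -2.58 and -0.78 in BxPC-3, MiaPaCa-2 and PANC-1, with a contrast of 1.91 (SE 0.14, adjusted p = 2.5e-07). ZBED5 had 44.7, 83.3 and 87.2 in PANC-1 with DMSO and 60.5, 72.4 and 64.02 with THZ1, which overlapped through the low replicate 1, against a fall from 30.9, 28.04 and 29.2 to 1.79, 2.30 and 1.78 in BxPC-3. Its contrast was 2.75 (SE 0.22, adjusted p = 3.8e-07).

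PNRC2, a cofactor of mRNA decapping, fell in BxPC-3 (log2 -2.36) and MiaPaCa-2 (-1.88), and its PANC-1 response was -0.02 with all libraries and -0.41 (adjusted p = 0.00395) without replicate 1. VANGL1, a planar polarity membrane protein, had -2.56 and -1.92 elsewhere and -0.19 in PANC-1, with a contrast of 2.06 (SE 0.14, adjusted p = 6.7e-08). TGIF2, a repressor in TGF-beta signalling, had -2.85 and -1.70 elsewhere and -0.13 in PANC-1; without replicate 1 its PANC-1 estimate was 0.02, which put it in the opposite sign class. INTS5, an Integrator subunit, KIF18B, a mitotic kinesin, and PALB2, a partner of BRCA2 in homologous recombination, had contrasts of 1.89, 1.73 and 1.46. XBP1 and DNAJB1, of the unfolded protein and heat shock responses, had 1.23 and 0.99. All passed the test with all libraries and without replicate 1.

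Weaker genes that rose elsewhere included stress and growth arrest genes. GADD45B, a stress-induced inhibitor of cell cycle progression, was at 26.2, 24.1 and 22.3 in PANC-1 with DMSO and at 31.7, 25.1 and 28.7 with THZ1. In MiaPaCa-2 it went from 21.00, 22.9 and 21.3 to 179, 174 and 162, and in BxPC-3 from 9.95, 12.3 and 11.8 to 50.9, 53.04 and 55.2. The PANC-1 groups overlapped and those of the other lines lay far apart, with a contrast of -2.31 (SE 0.12, adjusted p = 5.6e-09). JUNB, another partner of FOS, had 74.2, 46.1 and 44.7 in PANC-1 with DMSO and 78.5, 66.8 and 75.9 with THZ1, against a rise from 107, 114 and 109 to 501, 548 and 541 in BxPC-3. Its contrast was -1.87 (SE 0.17, adjusted p = 9.6e-07), and its PANC-1 response without replicate 1 was 0.68 (adjusted p = 2.0e-06). NXF1, the main mRNA export receptor, rose by 2.32 and 1.83 log2 elsewhere, and by 0.55 in PANC-1 without replicate 1 (adjusted p = 6.6e-06). IER2 rose by 2.28 and 1.27 elsewhere and had 0.56 in PANC-1 (adjusted p = 0.0499).

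IER3, an early response gene linked to cell survival, had the lowest contrast of the immediate early list. It was at 493, 216 and 199.6 in PANC-1 with DMSO and at 211, 189 and 192 with THZ1, while it rose from 18.4, 16.7 and 21.1 to 92.2, 87.9 and 83.2 in MiaPaCa-2. Replicate 1 was above the other PANC-1 DMSO libraries, and without it the PANC-1 response was -0.07 (adjusted p = 0.643). The contrast was -2.53 (SE 0.27, adjusted p = 4.1e-06) and -2.12 (SE 0.09, adjusted p = 2.4e-13) without it. ZFP36, which directs mRNA decay, CTGF, a target of YAP, and MXD1, an antagonist of MYC, had contrasts of -1.54, -1.50 and -1.39, and each passed without replicate 1 as well. Of 27 immediate early genes tested, 4 were higher and 15 lower in the contrast, with 6 and 16 without replicate 1 and 8 and 7 on the ERCC scale. The calls of IER2 and CTGF were lost on that scale, as was that of MXD1, which is not in this list. Of 18 MAPK feedback genes, 4 were higher and 3 lower (14 and 0 on the ERCC scale). Over all genes 12.8% were higher and 33.4% lower as deposited, and 6360 and 254 of 15498 on the ERCC scale.

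Transcripts of translation and energy metabolism were mostly lower in the contrast on the deposited scale and not on the ERCC scale. Of 78 cytosolic ribosomal protein genes 77 were lower in the contrast and 0 higher, against 33.4% lower over all genes. Their median response was 1.22 in BxPC-3, 1.11 in MiaPaCa-2 and 0.09 in PANC-1; over all genes the medians were 0.25, 0.19 and -0.07. Without replicate 1 the PANC-1 median was 0.27, and 65 of them rose in PANC-1. RPLP2, a protein of the ribosomal stalk, was at -1.40 (SE 0.26, adjusted p = 4.0e-04). On the ERCC scale the median contrast of the list was -0.11 and 0 of its genes were lower. Over all genes on that scale the median was 0.49, and 254 of 15498 were lower.

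Of 81 nuclear oxidative phosphorylation genes 72 were lower (median contrast -0.90, 0.03 on the ERCC scale), and of 13 mitochondrially encoded mRNAs 10 (13 without replicate 1 and 0 on the ERCC scale). MT_CO2, a subunit of cytochrome c oxidase, had a contrast of -0.94 (SE 0.09, adjusted p = 2.4e-06). The mitochondrial share of reads was 1.95% in replicate 1, against 4.04% and 4.05% in the other PANC-1 DMSO libraries, and its part in the result was not tested beyond leaving it out. Of 37 proteasome genes 30 were lower, with PSMA7 at -1.10. Of 23 glycolysis and hypoxia genes 19 were lower and 1 higher, with the aldolase gene ALDOA at -1.18. FTL, the ferritin light chain, and FASN, fatty acid synthase, had -1.30 and -1.20. RPLP2, PSMA7, ALDOA, FTL and FASN did not pass on the ERCC scale. The medians of the oxidative phosphorylation, proteasome and glycolysis lists were positive on the ERCC scale (0.03, 0.27 and 0.29).

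**Figure D4:**
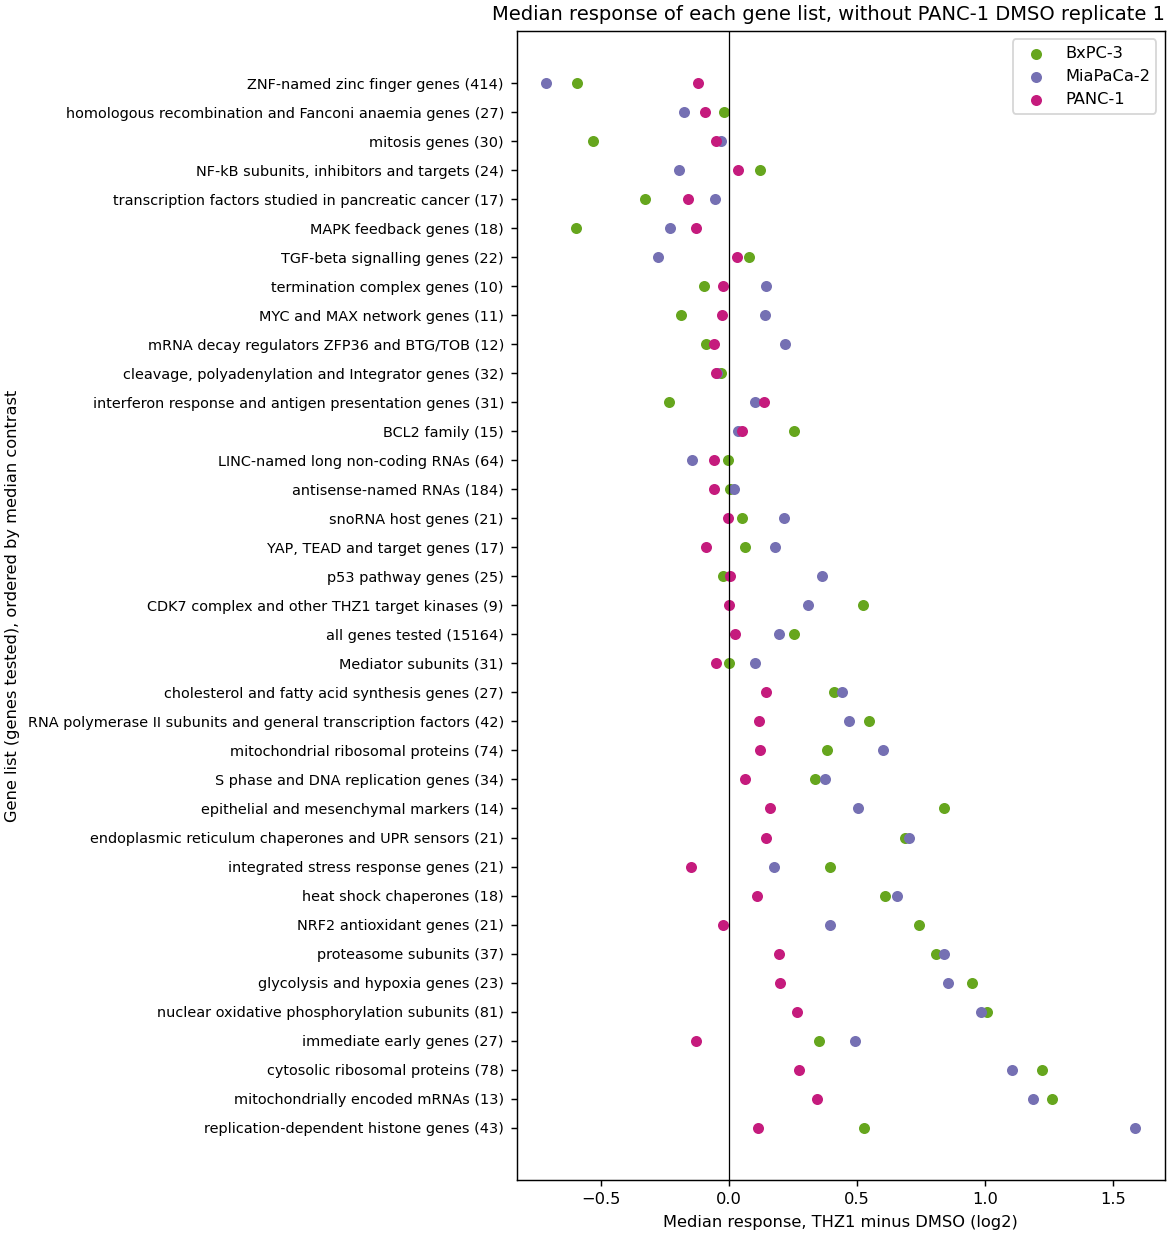
Median log2 response of each gene list (horizontal) in BxPC-3, MiaPaCa-2 and PANC-1, without PANC-1 DMSO replicate 1 and on the deposited scale; lists are ordered by median contrast and the number of genes tested is in brackets. The PANC-1 points lie near 0, between -0.16 and 0.34, for the lists drawn.

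Zinc finger genes moved the other way. Of 414 ZNF-named genes 211 were higher in the contrast and 20 lower, against 12.8% higher over all genes. Their median response was -0.60 in BxPC-3, -0.72 in MiaPaCa-2 and -0.13 in PANC-1. The median contrast was 0.50 as deposited, 0.83 with TMM factors and 1.21 on the ERCC scale. Among those at a mean of at least 10 in every line, ZNF780B was highest at 1.82 and ZNF580 lowest at -1.39. Of 30 mitosis genes 12 were higher and 2 lower, and of 27 homologous recombination and Fanconi genes 7 and 6. Without replicate 1 these counts were 15 and 6, and 9 and 7. On the ERCC scale with all libraries they were 30 and 0, and 22 and 0. Over all 15498 genes tested on the ERCC scale 6360 were higher and 254 lower. Genes of the weaker class that fell elsewhere had a median transcript length of 4105 bases, those that rose elsewhere 2749 and all genes tested 3522.

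The kinases that THZ1 binds did not pass the test of the contrast on the deposited scale. CDK7 was at 16.1, 26.9 and 25.4 in PANC-1 with DMSO and at 25.2, 23.4 and 23.6 with THZ1, and the groups overlapped. Its contrast was 0.31 (SE 0.17, adjusted p = 0.151). CDK12 and CDK13 had contrasts of 0.27 (SE 0.12, adjusted p = 0.0783) and 0.13 (SE 0.21, adjusted p = 0.646). On the ERCC scale all 3 passed, with contrasts of 1.21, 1.22 and 1.07, and CDK7 and CDK12 also passed with TMM factors. Of 9 genes of the CDK7 complex and related kinases 1 was lower, the cyclin CCNK of CDK12 and CDK13, at -0.63 (SE 0.09, adjusted p = 3.4e-05); it was 0.33 on the ERCC scale. Without replicate 1, 3 were lower, CCNK and the CDK9 cyclins CCNT1 (-0.59) and CCNT2 (-0.42), the latter named after their values were seen; on the ERCC scale with all libraries 6 were higher and 0 lower. Over all genes 33.4% were lower with all libraries as deposited and 39.9% without replicate 1. On the ERCC scale with all libraries 6360 of 15498 genes were higher and 254 lower. POLR2A, the largest subunit of RNA polymerase II, was at 592, 495 and 457 in PANC-1 with DMSO and 629, 607 and 619 with THZ1, while it rose from 487, 493 and 498 to 1504, 1517 and 1528 in BxPC-3. The PANC-1 groups did not overlap. Its contrast was -1.31 (SE 0.10, adjusted p = 2.5e-07), and -0.36 on the ERCC scale, where it did not pass. MYC, often studied as a target of CDK7 inhibition, had responses of -0.95 in BxPC-3, 0.19 in MiaPaCa-2 and -0.03 in PANC-1, with a contrast of 0.35 (SE 0.11, adjusted p = 0.0127). MCL1, a survival gene of the BCL2 family, had 0.25 (SE 0.22, adjusted p = 0.364).

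Rows tied to ribosomal RNA repeats had contrasts further from 0 than the other genes named here, but their reads could come from many near-identical copies and the values are uncertain. MIR3648 was at 1402, 144 and 119 in PANC-1 with DMSO and at 283, 325 and 271 with THZ1, and rose from 346, 352 and 328 to 12216, 12461 and 10291 in MiaPaCa-2. Replicate 1 stood far above the other PANC-1 DMSO libraries. The contrast was -4.16 (SE 0.71, adjusted p = 2.3e-04) with all libraries and -3.02 (SE 0.14, adjusted p = 6.0e-13) without it. MIR3687 and MIR663A had -4.21 and -3.59, and -2.93 and -2.98 without it. Of 43 replication-dependent histone genes, whose main transcripts lack a poly(A) tail, 37 were lower and 0 higher (15 and 0 on the ERCC scale), against 33.4% of all genes lower as deposited and 254 of 15498 on the ERCC scale. HIST1H4C was at 95.2, 6.08 and 4.74 in PANC-1 with DMSO, and its contrast went from -2.44 to -1.13 without replicate 1; it did not pass on the ERCC scale or without PANC-1 THZ1 replicate 1 or 2. MIR3648 and MIR3687 did not pass in DESeq2.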

How the data were processed

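The authors deposited 1 table with a signal for each gene and library, from polyadenylated RNA libraries with ERCC controls added after extraction, per the labels' protocols. Per the submitters' processing notes reads were aligned with STAR to hg19; the counting program is not given in the sources used here. Each deposited signal was a whole read count divided by 1 whole number per library: 100% of values multiplied back came within 0.001 of a whole number. The recovered read counts were used for edgeR 4.0.16, DESeq2 1.42.0 and voom as alternatives. A group of 22 rows with names turned into dates was tested but not named.

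Values times 17.6795 plus a pseudocount of 1 were put on a log2 scale and fitted with limma-trend (limma 3.58.1, R 4.3.3) over 6 group means (residual df 12), for genes at 1 or more in at least 3 libraries, with Benjamini-Hochberg adjustment at 0.05. All adjusted p-values in the text are from this fit unless a tool is named. The pseudocount understates the changes of low genes. In counts simulated for this contrast over 15694 genes, 76% of changes of 1 log2 and 97% of 2 log2 were recovered. The 200 changed genes were drawn from those at a mean of at least 10, so recovery among low genes was not measured. The pseudocount also gave calls. In that simulation 157 genes with the same fold in every line were called, against 7 with a pseudocount of 0.1. The 157 were 1.01% of such genes but 47.6% of all calls. With 17 libraries, 225 were called (1.46% of them and 53.7% of calls). A first limit, on the share of false calls among all calls, was not met and was replaced by one on the share of unchanged genes called. Part of the calls of low genes may be of this kind. Such calls arise since a low gene's fold is compressed where its level differs between lines.

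Classes were exclusive. Named genes were those with the largest contrasts per class, those highest and lowest in each gene list, at a mean of at least 10 in every line, 7 fixed genes, and a few said to be chosen after seeing values; not all are printed. The members and lists were chosen with earlier results of these data known.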

Additional observations from a re-analysis of the deposited data

Results flagged for a closer look

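The test of the difference itself, PANC-1 against the mean of the other lines, passed for 7096 genes, and it set apart each of the genes below. The values are contrasts on the log2 scale with all libraries. Genes above 0, whose PANC-1 response lay above the mean of the other lines, were MYC at 0.35, ZBED5 at 2.75, ZC3H4 at 2.67, TGIF2 at 2.15, PNRC2 at 2.10, VANGL1 at 2.06, PPP1R10 at 1.91, INTS5 at 1.89, PALB2 at 1.46, KIF18B at 1.73, XBP1 at 1.23, ZNF780B at 1.82 and DNAJB1 at 0.99. For MYC the PANC-1 response lay between those of BxPC-3 and MiaPaCa-2.

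Genes below 0 in transcription, early response and stress were FOS at -2.02, FOSB at -2.14, EGR1 at -1.96, DUSP2 at -1.14, ATF4 at -0.71, LIX1L at -0.73, JUNB at -1.87, IER2 at -1.22, IER3 at -2.53, ZFP36 at -1.54 and GADD45B at -2.31. The other genes below 0 were NXF1 at -1.70, MIR3648 at -4.16, MIR663A at -3.59, MIR3687 at -4.21, RPLP2 at -1.40, POLR2A at -1.31, CCNK at -0.63, MXD1 at -1.39, MT_CO2 at -0.94, HIST1H4C at -2.44, FTL at -1.30, ALDOA at -1.18, PSMA7 at -1.10, ZNF580 at -1.39, FASN at -1.20 and CTGF at -1.50.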

How the results depend on the processing

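The main counts were 1961 genes higher, 5135 lower, 0 opposite, 3241 weaker and 4164 apart from each other line. Filters on low values and pseudocounts of 0.5 and 5 left each of these within 1.5 times. The scale did not: genes higher and lower numbered 6360 and 254 at equal ERCC sums, 5454 and 990 at equal endogenous sums, 3467 and 2430 with TMM and 3216 and 2642 with DESeq2 factors. On recovered reads they were 3263 higher and 2479 lower with voom, 3156 higher and 2644 lower with edgeR and 3124 higher and 3147 lower with DESeq2, and voom with quality weights gave 1253 lower and 2316 apart. Sample weights, whose estimate stopped before convergence, gave 3042 higher, 52 opposite, 6315 weaker and 6511 apart. PANC-1 THZ1 replicate 3 had a weight of 50.1 there, against 0.56 and 0.42 for replicates 1 and 2. The PANC-1 THZ1 mean in that fit thus rested mostly on 1 library, which limits these counts. At a contrast of at least 1 log2 there were 612 higher, 1355 lower, 683 weaker and 1652 apart. Without PANC-1 DMSO replicate 1, genes higher were 4122 (TMM), 7057 (ERCC), 6534 (equal sums), 3748 (DESeq2 factors) and 3907 (edgeR), and genes lower 186 (ERCC) and 1271 (equal sums). Weaker genes were then 5711, 6623, 5921, 5796 and 5637 in that order and 6655 at an equal median; the ERCC scale with all libraries gave 5419. Opposite genes were 1 (ERCC) and 3 (DESeq2) with all libraries, and without replicate 1 they were 1 (TMM), 2 (ERCC), 1 (equal sums), 1 (equal median) and 2 (edgeR). The 4 settings without replicate 1 at equal sums, equal median, DESeq2 factors and edgeR were chosen after seeing the data. The cause was not tested.

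Leaving out 1 library in turn gave 1700 to 2676 higher, 4336 to 6052 lower, 0 to 104 opposite, 2379 to 6331 weaker and 3455 to 5723 apart. Leaving out 1 of the 6 PANC-1 libraries gave a spike-in contrast of -1.06 to -0.82. The libraries that moved a count by over 1.5 times were PANC-1 DMSO replicate 1 (weaker 6331) and, for opposite genes, PANC-1 DMSO replicates 1 (1), 2 (11) and 3 (104). The replicate block gave 1945 higher and 5125 lower, and a block within line 2086 and 5366. The numbers were not taken to pair samples, since 3 of 9 same-numbered pairs had r over 0.1 (-0.03 to 0.45) and 10 of 18 libraries correlated best with their own number.

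For the named genes 1847 of the alternative values kept direction and side of the threshold, 47 lost the call, 45 gained it (CDK7, CDK12, CDK13, MCL1, CCNT1 and CCNT2) and 39 reversed. On the ERCC scale MT_CO2 was 0.0216, CCNK 0.33, ATF4 0.25 and LIX1L 0.17, and without replicate 1 CCNK 0.23, ZNF580 0.0023, ATF4 0.25 and LIX1L 0.019. At equal sums CCNK was 0.064. The CDK13 contrast and the MCL1 contrast, called in neither direction, were -0.0717 and -0.0828 with sample weights, -0.22 and -0.14 without replicate 1 at an equal median, and -0.15 and -0.079 without it as deposited; leaving out 1 library gave them -0.15 to 0.30 and -0.079 to 0.42. The CCNT1 contrast and the CCNT2 contrast, below 0 with all libraries and not called (-0.30 and -0.0214), were 0.64 and 0.91 (ERCC), 0.38 and 0.66 (equal sums), 0.10 and 0.37 (TMM), 0.0731 and 0.34 (DESeq2 factors) and, without replicate 1, 0.24 and 0.40 (ERCC). CCNT1 was 0.0038 with voom. CCNT2 was 0.23 with voom, 0.15 with quality weights, 0.15 with edgeR, 0.14 with DESeq2, 0.14 without replicate 1 at equal sums and -0.42 to 0.21 leaving out 1 library. A value of 1 on the scale stood for 6.34 to 24.7 reads, which limits low genes.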

Other observations

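Lists outside the groups described above were split in the contrast with all libraries. Of 31 Mediator genes 6 were higher and 8 lower, of 32 cleavage, polyadenylation and Integrator genes 9 and 7, and of 42 RNA polymerase II and general factor genes 10 and 17. Of 21 integrated stress response genes 1 was higher and 10 lower, and of 21 endoplasmic reticulum chaperone and sensor genes 2 and 10. Of 27 cholesterol and fatty acid synthesis genes 2 were higher and 15 lower. The shares over all genes were 12.8% and 33.4%. On the ERCC scale no gene of these lists was lower, and 19, 24, 22, 6, 9 and 14 were higher in the same order. Over all 15498 genes tested on that scale 6360 were higher and 254 lower.

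Transcript GC content across genes correlated with the contrast at r = -0.29 with all libraries and -0.05 without PANC-1 DMSO replicate 1 (n = 13096 and 12981 genes, which share the libraries). Genes of the opposite sign class had a median GC of 42.1% where they fell elsewhere and 56.98% where they rose elsewhere with all libraries, and 51.1% and 46.8% without it.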
